A study of Mus musculus with 12 samples.

Results

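Camk2a, the gene of the alpha subunit of calcium/calmodulin-dependent protein kinase II (CaMKII), carried 562 of the 250567 chimeric peaks in 4 deposited lists. A chimeric read joins a small RNA to the RNA it was bound to inside an Argonaute 2 (Ago2) complex, and a peak is a place where such reads of 1 small RNA pile up. The members were all peaks whose deposited annotation names Camk2a: 14 of 766 peaks in the excitatory list, 24 of 3611 in reps 5-7, 524 of 246180 in reps 1-4 and 0 of 10 in IgG. The gene was chosen with its high peak numbers in these lists known, so how much of each list it holds is given as a description, with no test.

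All libraries came from the forebrain of adult C57BL/6 mice, harvested at an age of 10 to 12 weeks after 3 rounds of ultraviolet cross-linking. The excitatory list pools 3 anti-myc libraries, which pull down a tagged Ago2 switched on by Cre in excitatory neurons (Camk2a-CreERT2, tamoxifen at 2 mg a day over 5 days and a wait of 14 to 21 days). Reps 5-7 pools 3 libraries made with an anti-Ago2 antibody from whole forebrain, reps 1-4 pools 4 such libraries, and IgG pools 2 libraries made with control immunoglobulin. Since the labels repeat the tamoxifen text for all samples, the sources used here do not say which of the other mice carried the tagged Ago2. The promoter of Camk2a itself drives the Cre that defines the excitatory list. Each list is 1 pooled observation with no replicates, so intervals and p-values cover counting error only and compare lists, not conditions. Reads were amplified without molecular identifiers, and peaks of different small RNAs at 1 place were counted separately and are not independent.

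CaMKII is one of the most abundant proteins of the postsynaptic density of excitatory forebrain neurons. Calcium-bound calmodulin opens its kinase domain, and autophosphorylation of the regulatory segment then keeps it active after calcium has fallen, a step long studied in synaptic plasticity and memory. The mRNA of the alpha subunit is carried into dendrites through its long 3' untranslated region (UTR) and translated near synapses. A microRNA (miRNA) guides Ago2 to a target mainly by its seed, the bases near its 5' end.

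Most of the small RNAs below are shown because they recurred on Camk2a across lists or differed in share from other genes. miR-29c-3p is added for the seed it has in common with miR-29a-3p, and miR-181a-5p as a reported partner of Camk2a. Mature sequences are from RefSeq (GRCm38.p6), written 5′ to 3′, with the seed (bases 2 to 8) in capitals. The first 4 each had a Camk2a peak in all 3 Ago lists, as did miR-29a-3p and miR-124-3p, a miRNA abundant in neurons that is named here without its sequence.
miR-138-5p: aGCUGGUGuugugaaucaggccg
miR-128-3p: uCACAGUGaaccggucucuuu
miR-127-3p: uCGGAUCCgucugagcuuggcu
miR-26a-5p: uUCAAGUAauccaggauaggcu
miR-29a-3p: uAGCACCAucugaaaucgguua
miR-29b-3p: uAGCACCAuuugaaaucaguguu
miR-29c-3p: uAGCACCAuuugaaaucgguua
miR-770-5p: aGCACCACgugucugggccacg
miR-9-5p: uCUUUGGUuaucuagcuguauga
let-7c-5p: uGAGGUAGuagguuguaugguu
miR-132-3p: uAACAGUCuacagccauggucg
miR-181a-5p: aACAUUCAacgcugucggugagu
The 3 miR-29 sequences have 1 seed in common, and the seed of miR-770-5p shares a run of 6 bases with it. Of the 112 small RNAs found on Camk2a, 96 had a single mature sequence in the RefSeq table, and these fell into 75 seeds.

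Camk2a stood at or near the top of each Ago list. It held 1.83% of all excitatory peaks (95% Wilson interval 1.09 to 3.04), 0.665% of reps 5-7 peaks (0.447 to 0.987) and 0.213% of reps 1-4 peaks (0.195 to 0.232). The lists differ widely in size, at 766, 3611 and 246180 peaks, and the share also differed between both anti-Ago2 lists. The part of list size in these differences was not tested, so the shares do not rank the lists. Its rank by number of peaks was 3 of 461 genes in the excitatory list, 7 of 1465 in reps 5-7 and 46 of 11352 in reps 1-4. In IgG, 0 of 10 peaks lay on it, which allows a share of up to 30%.

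Counting only peaks annotated to coding sequence (CDS) or a UTR, Camk2a had 13 of 582 excitatory peaks (2.23%, rank 1 of 427 genes), 23 of 2383 in reps 5-7 (0.965%, rank 2 of 1333) and 464 of 103963 in reps 1-4 (0.446%, rank 2 of 9672). The median gene with such a peak had 1, 1 and 5 peaks in these 3 lists. Next to it in the excitatory list stood Map2 with 11 peaks, which encodes a microtubule protein of dendrites, Ddn with 7, which encodes dendrin of the postsynaptic density, and Sptbn1 with 6, a spectrin of the membrane skeleton. In both anti-Ago2 lists the gene above Camk2a was Slc1a2, the glutamate transporter of astrocytes. Slc1a2 had 26 CDS and UTR peaks in reps 5-7 and 511 in reps 1-4. The excitatory list held 0 peaks on Slc1a2 among its 582, which allows a share of up to 0.515%. In such lists fewer cells of a type and less bound RNA per cell cannot be told apart.

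The excitatory label could be checked only in part against marker genes at this number of peaks. The excitatory list had no CDS or UTR peak on any of 5 excitatory neuron markers (Slc17a7 and Tbr1 among them), nor on the 5 inhibitory neuron, 5 astrocyte, 5 microglia or 5 vascular markers. Reps 5-7 had peaks on 1 excitatory, 2 inhibitory and 3 astrocyte markers, and reps 1-4 on all 5 markers of each of these 3 cell types. The part of cell composition in any difference between lists was not tested. The calling summaries give the same 3 library numbers to the excitatory and reps 5-7 lists, and what these numbers mean is not stated.

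The Camk2a segments were rebuilt from the CDS and UTR intervals listed with its peaks, and span chr18:60925618-60988152 (mm10, plus strand). Joined, they make a 5' UTR of 161 bases, 17 CDS segments of 1509 bases in all and a 3' UTR of 3372 bases. The intervals have 4 different 3' UTR ends, so the joined segments are a composite and may not match any 1 transcript. An exon that no peak was annotated to is left out, which the densities per length do not allow for. In the excitatory list 10 Camk2a peaks were annotated to CDS, 1 to the 5' UTR, 2 to the 3' UTR and 1 to an intron. In reps 5-7 the annotation gave 15 CDS, 8 3' UTR and 1 intron peaks. In reps 1-4 it gave 273 CDS peaks (52.1% of 524, 95% interval 47.8 to 56.3), 22 5' UTR peaks (4.20%), 169 3' UTR peaks (32.3%) and 60 intron peaks (11.5%). All other genes of reps 1-4 together had 22.5% CDS, 0.949% 5' UTR, 18.6% 3' UTR and 47.6% intron peaks.

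Per length, the coding sequence was the most densely covered part of the joined segments. Reps 1-4 had 21.1 peaks per 100 bases of CDS, 12.4 per 100 bases of 5' UTR and 5.04 per 100 bases of 3' UTR, counting each peak by the segment it overlaps. The first 11 CDS segments, 900 bases that encode the kinase domain and the start of the regulatory segment, carried 244 peaks (27.1 per 100 bases). The last 6 segments, 609 bases, include those for the rest of the regulatory segment, the linker and the hub through which subunits assemble. They carried 74 (12.2 per 100 bases), but as a composite may not all belong to 1 transcript. Single segments ranged from 21.2 to 33.3 peaks per 100 bases among the first 11. Among the last 6 they ranged from 2.56 (segment 13, 117 bases) to 16.3. The excitatory list put 10 CDS peaks in the first 11 segments and 1 in the last 6, and reps 5-7 put 14 and 2 there. This split of the segments was chosen after the values were seen and carries no test. Since only segments with a peak in some list were counted, each of the 17 has a peak by construction, and all 17 had one in reps 1-4. Of these, 10 held a peak in reps 5-7 and 7 in the excitatory list, 6 of them in all 3 lists.

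**Figure D1:**
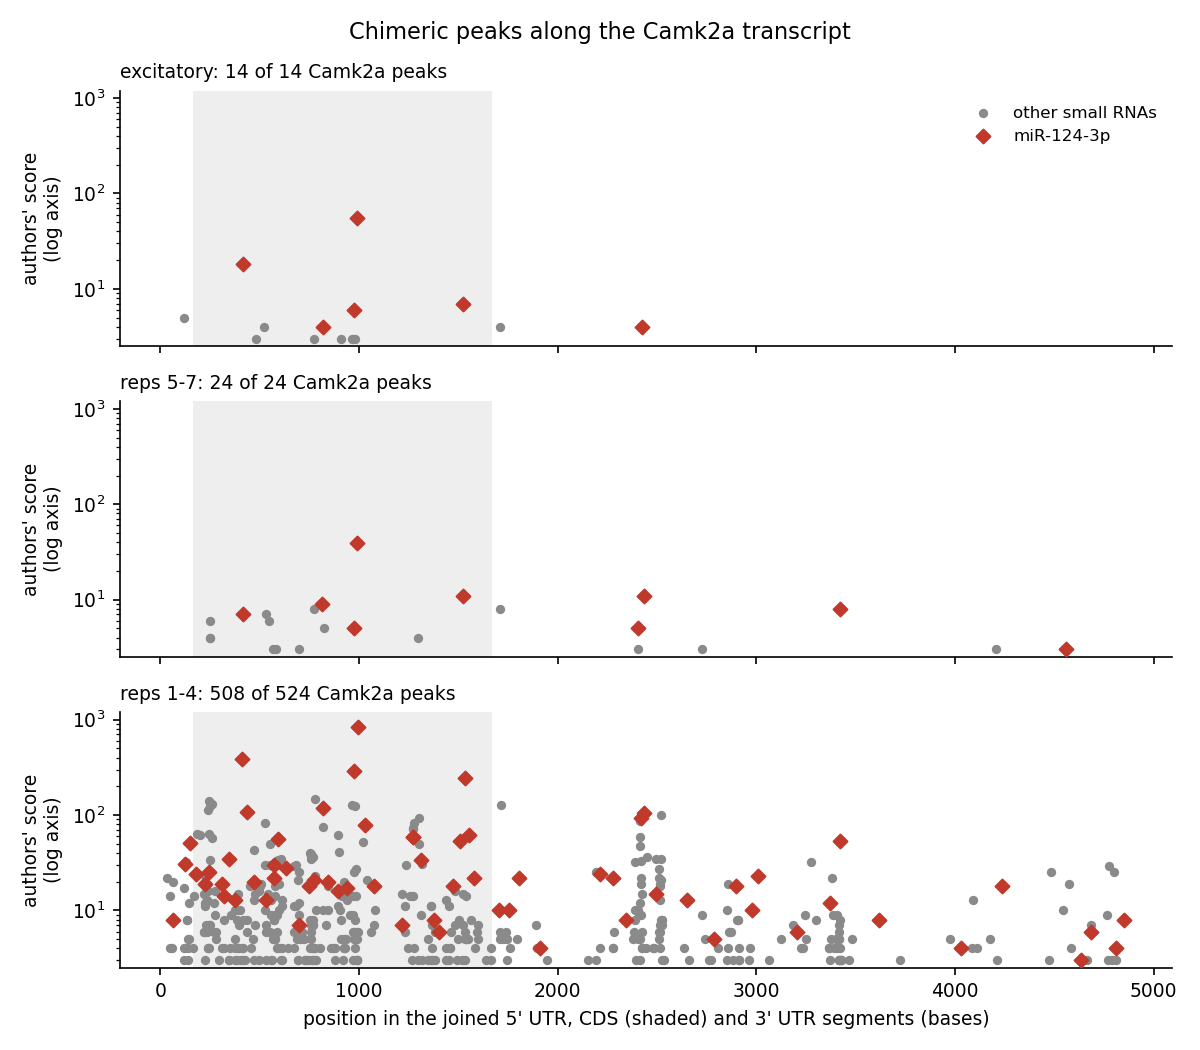
Each point is a Camk2a peak by its position in the joined 5' UTR, CDS (shaded) and 3' UTR segments (x axis, bases) and its deposited score (log axis), in the excitatory, reps 5-7 and reps 1-4 lists from top to bottom. The miR-124-3p peak in CDS segment 11 is the highest point of every panel, at 55, 39 and 830, and the 508 placed peaks of reps 1-4 are denser over the CDS than over the 3' UTR.

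The same place was the strongest in every list. A peak of miR-124-3p in CDS segment 11 had a score of 55 in the excitatory list (chr18:60958578-60958591), 39 in reps 5-7 (chr18:60958577-60958591) and 830 in reps 1-4 (chr18:60958586-60958590). The score is the authors' whole number, with a lowest value of 3 in each list. It is not scaled to library size, so it ranks peaks within a list only. This peak ranked 1 of 582 CDS and UTR peaks in the excitatory list, 5 of 2383 in reps 5-7 and 10 of 103963 in reps 1-4. Counted over the listed segments joined in order, segment 11 covers codons 273 to 300 and the peak codons 274 to 279 in the excitatory list and in reps 5-7 and 277 to 278 in reps 1-4. These codons lie at the border of the kinase domain and the regulatory segment.

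Other peaks of miR-124-3p followed in the coding sequence. In segment 4 its score was 18 in the excitatory list, 7 in reps 5-7 and 384 in reps 1-4 (chr18:60951324-60951325). In the peak that ends on the last base of segment 10 it was 6, 5 and 287 in the same order of lists, and in segment 17 it was 7, 11 and 242. These 4 places held 50.5% of the summed score of the 74 miR-124-3p peaks on Camk2a in reps 1-4. The rest of those peaks reached down to a score of 3, with a median of 18 over all 74.

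Peaks of other small RNAs were lower. In reps 1-4 the next were miR-26a-5p in segment 9 (score 148, chr18:60957314-60957318), miR-29a-3p at 2 places of segment 2 (140 and 130), and miR-127-3p in segment 10 (126) and at the start of the 3' UTR (126, chr18:60984824-60984825). The miR-26a-5p peak scored 3 in the excitatory list and 8 in reps 5-7. The 3' UTR peak of miR-127-3p scored 4 in the excitatory list and 8 in reps 5-7. The highest miR-128-3p peak, in segment 6, scored 4 in the excitatory list, 7 in reps 5-7 and 83 in reps 1-4.

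As a whole, the median score of Camk2a CDS and UTR peaks was 4 in the excitatory list, 5 in reps 5-7 and 7 in reps 1-4, against 4, 4 and 5 for all other genes. In reps 1-4, 38.6% of them scored 10 or more, against 20.2% of other genes' peaks. CDS peaks of Camk2a had a median of 8 there and 3' UTR peaks 6, where other genes had 5 in both regions.

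Most Camk2a peaks of the smaller lists overlapped a peak of the same small RNA in the large one. That list holds 524 Camk2a peaks, and how much overlap this density alone would give was not tested. The Camk2a counts here include 1 intron peak in each smaller list, which the values for other genes leave out. Each of the 14 excitatory peaks shared at least 1 base with a peak in reps 1-4 that carries its small RNA (100%, interval 78.5 to 100), against 96.7% of the CDS and UTR peaks of other genes in that list. In reps 5-7, 21 of 24 did so (87.5%, interval 69.0 to 95.7), against 91.7% for other genes. Both values for other genes lay inside the Camk2a interval. This did not hold for an overlap of at least 50% of both peaks, which 21.4% of excitatory Camk2a peaks reached (interval 7.57 to 47.6) against 64.9% on other genes, and 33.3% in reps 5-7 (18.0 to 53.3) against 54.7%. The median Camk2a peak was 19 bases long in the excitatory list, 20 in reps 5-7 and 15 in reps 1-4. In reps 5-7, 9 of the 14 excitatory peaks had such a partner of at least 1 base (64.3%, interval 38.8 to 83.7), against 52.0% of 569 peaks on other genes, a value inside that interval. The 9 make 37.5% of the 24 peaks of reps 5-7. Of these 9, 6 were miR-124-3p peaks. The excitatory peaks without a partner in reps 5-7 were those of miR-138-5p in the 5' UTR (score 5), miR-128-3p in segment 5, miR-29a-3p in segment 10 and a pair of miR-127-3p peaks on both sides of the join of segments 10 and 11 (score 3 each).

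**Figure D2:**
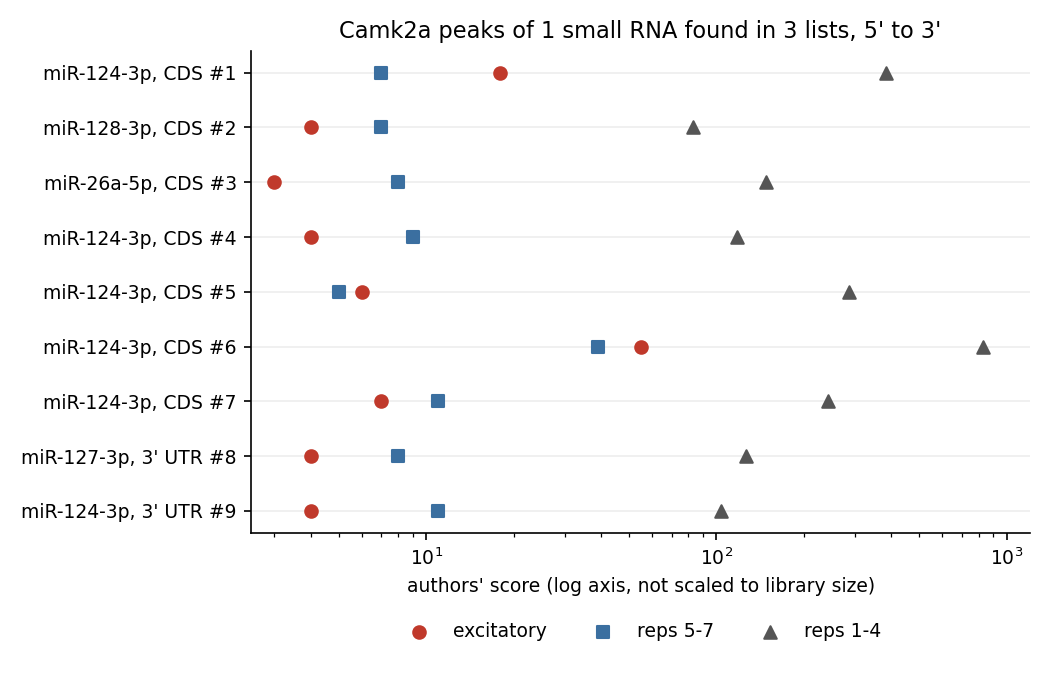
The 9 Camk2a peaks present in the excitatory, reps 5-7 and reps 1-4 lists under 1 small RNA name, ordered 5' to 3' down the page, with the deposited score on a log axis. Scores of the excitatory and reps 5-7 lists lie between 3 and 55 and those of reps 1-4 between 83 and 830, and the lists are not scaled to each other.

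Within reps 5-7, peaks not seen in the excitatory list included miR-29b-3p in segments 2 and 6 (scores 4 and 6), miR-132-3p across the join of segments 6 and 7 (3 and 3), let-7c-5p in segment 8 (3), miR-342-3p in segment 2 (4) and miR-22-3p in segment 15 (4). In the 3' UTR these were miR-124-3p at 3 places (5, 8 and 3), miR-125b-5p (3), miR-138-5p (3) and miR-320-3p (3). Whether a peak missing from one list was absent there or missed at its depth was not tested.

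Whether Camk2a peaks fall in the 3' UTR less often than those of other genes was tested among CDS and UTR peaks in each list. The 3' UTR share of Camk2a was 2 of 13 in the excitatory list (15.4%, interval 4.33 to 42.2), against 37.6% of 569 peaks on other genes. It was 8 of 23 in reps 5-7 (34.8%, interval 18.8 to 55.1), against 51.1% of 2360. In reps 1-4 it was 169 of 464 (36.4%, interval 32.2 to 40.9), against 44.2% of 103499. The reps 1-4 difference of -7.81 points passed the threshold of 0.05 (two-sided Fisher's exact test, p = 0.00219 after Benjamini-Hochberg adjustment over the 3 lists). The smaller lists showed differences of -22.2 points (excitatory) and -16.3 points (reps 5-7) that did not pass it (adjusted exact p = 0.146 in both).

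The lower 3' UTR share in reps 1-4 depended on which peaks and genes were counted. Against the 12 other genes with at least 200 CDS and UTR peaks, a comparison added after seeing the data, the difference was 1.08 points (adjusted exact p = 1). When overlapping peaks were merged into sites, 43 of 78 Camk2a sites lay in the 3' UTR (55.1%) against 44.4% of other genes' sites, a difference of 10.7 points (adjusted exact p = 0.203). With introns in the denominator it was 13.6 points (adjusted exact p = 2.90e-13). Weighted by score, 23.7% of the Camk2a signal lay in the 3' UTR, against 45.0% for other genes. Other settings kept the lower share. It was -9.68 points at or above the median score (adjusted exact p = 0.000348) and -7.57 among genes with at least 20 CDS and UTR peaks (adjusted exact p = 0.00352). With intron labels at exon edges counted as CDS, a setting added after seeing the data, it was -9.27 points (adjusted exact p = 6.73e-05).

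**Figure D3:**
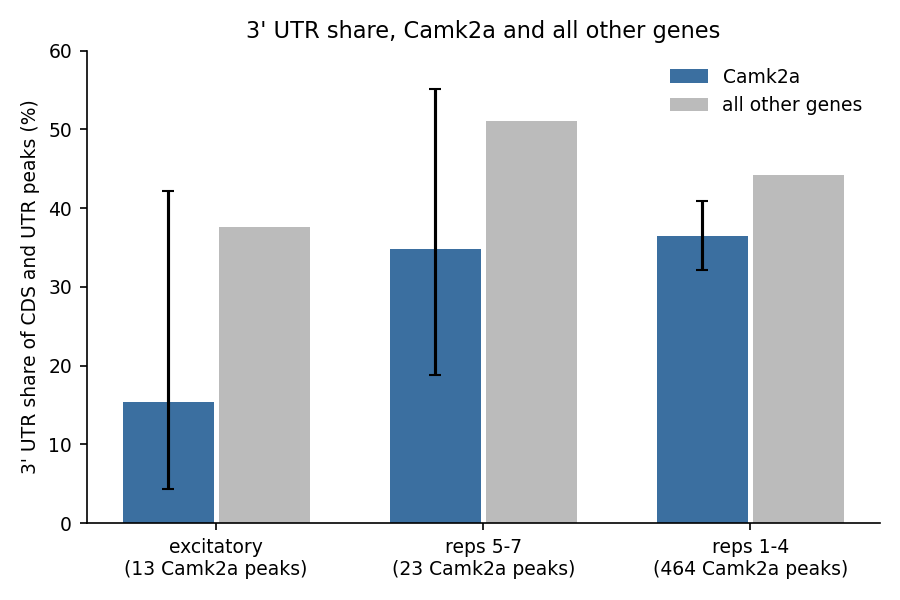
Bars give the share of CDS and UTR peaks that lie in the 3' UTR (y axis, percent) for Camk2a (blue, with the 95% Wilson interval) and for all other genes (grey) in each Ago list. The Camk2a bar is the lower of each pair, and its interval excludes the value of other genes in reps 1-4 but not in the excitatory or reps 5-7 lists.

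Between lists, the 3' UTR share of Camk2a peaks was 15.4% in the excitatory list, against 34.8% in reps 5-7 and 36.4% in reps 1-4. The difference was -19.4 points against reps 5-7 (95% interval -42.5 to 11.8) and -21.0 points against reps 1-4 (-33.0 to 6.15), and neither passed the threshold (Fisher's exact test, adjusted exact p = 0.270 in both). Among the 13 top-scoring Camk2a peaks of reps 1-4 alone, the share was also 15.4%. Over merged sites the difference against reps 1-4 was -38.5 points (-54.4 to -8.24, adjusted exact p = 0.0532).

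Many peaks of different small RNAs lay at shared places. In reps 1-4 the 524 peaks of the whole gene, introns included, merged into 98 sites, 52 of them a single peak and 23 with at least 5 small RNAs. The site with the most small RNAs lay in the 3' UTR at chr18:60985478-60985660, with 50 peaks of 36 small RNAs and a summed score of 1027. It was led by miR-124-3p (104) and held all 9 members with the let-7 seed, all 3 with the miR-29 seed and 5 of the miR-30 family. Both smaller lists had a miR-124-3p peak in this site, with a score of 4 in the excitatory list and 11 and 5 at 2 places in reps 5-7. A second 3' UTR site at chr18:60986457-60986550 held 25 peaks of 24 small RNAs with a summed score of 191. In reps 5-7 it held miR-124-3p alone (score 8), and in the excitatory list nothing.

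Of the 5 sites with the most small RNAs, 3 lay in CDS segments 10, 8 and 2, with 25, 24 and 24 small RNAs. By summed score the first site was one in segment 11 (1047 over 15 peaks), followed by the large 3' UTR site (1027) and by sites in segment 2 (903), segment 10 (760) and segment 17 (562). At the sites with most score in segments 4 and 11, miR-124-3p made up most of the sum, 384 of 470 and 830 of 1047. At the site in segment 2 the miR-29 family led instead, at 2 adjoining places. Scores at the first were 140 for miR-29a-3p, 112 for miR-29b-3p and 63 for miR-29c-3p, and at the second 130, 125 and 58. The miR-770-5p peak of segment 2 (score 7, chr18:60941301-60941311) overlapped the first place.

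Many peaks annotated as intronic reached into an exon. In reps 1-4, 44 of the 60 Camk2a intron peaks (73.3%) covered the first or last base of an exon, against 3.51% of 117053 intron peaks of other genes. They had a median score of 8, against 4 for the 16 that did not reach an exon. The single intron peak of the excitatory list and of reps 5-7 also reached one. In the deposited annotation the intron intervals end on the first base of the next exon, and all 44 began on the last base of their intron interval. For 43 of the 44 this was the first base of a rebuilt segment.

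Many of these formed pairs. In reps 1-4, 35 pairs of peaks of 1 small RNA ended on the last base of a CDS segment and resumed on the first base of the next, over 27 small RNAs, and 25 of the pairs had equal scores on both sides. In 29 of them the downstream peak was labelled intron. Examples were miR-132-3p across segments 6 and 7 (score 29 on both sides), miR-124-3p across 14 and 15 (59 on both sides) and miR-9-5p across the same join (71 and 73). The excitatory list had 1 such pair (miR-127-3p, 3 and 3) and reps 5-7 had 1 (miR-132-3p, 3 and 3). Counting each pair once left 489 Camk2a peaks in reps 1-4.

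A few small RNAs made up much of the Camk2a signal. In reps 1-4, 112 small RNAs had a peak on it, 54 of them a single one, and the leading 10 held 260 of the 524 peaks (49.6%). By number of peaks the order was miR-124-3p with 74, miR-138-5p with 34, miR-128-3p with 33, miR-9-5p with 24, miR-29a-3p and miR-125b-5p with 21 each, miR-29b-3p with 14, and miR-127-3p, miR-26a-5p and let-7c-5p with 13 each. Most of these had more peaks in the CDS than in the 3' UTR: 37 and 25 for miR-124-3p, 26 and 5 for miR-138-5p, and 25 and 7 for miR-128-3p, counting each peak by the segment it overlaps. By summed score miR-124-3p held 35.9%, ahead of miR-128-3p (6.76%) and miR-127-3p (5.27%).

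In the excitatory list the 14 peaks belonged to 6 small RNAs: miR-124-3p with 6, miR-127-3p with 3, miR-128-3p with 2, and miR-138-5p, miR-29a-3p and miR-26a-5p with 1 each. In reps 5-7 the 24 peaks belonged to 13, led by miR-124-3p with 9. All 6 of the excitatory list were among the 13 of reps 5-7. Grouped by seed in reps 1-4, let-7 and miR-98-5p had 70 peaks over 9 members and miR-29 had 46 over 3. Among CDS and UTR peaks the let-7 seed held 14.2% on Camk2a against 14.1% on other genes, and the miR-29 seed 9.48% against 9.32% (adjusted exact p = 1 in both).

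**Figure D4:**
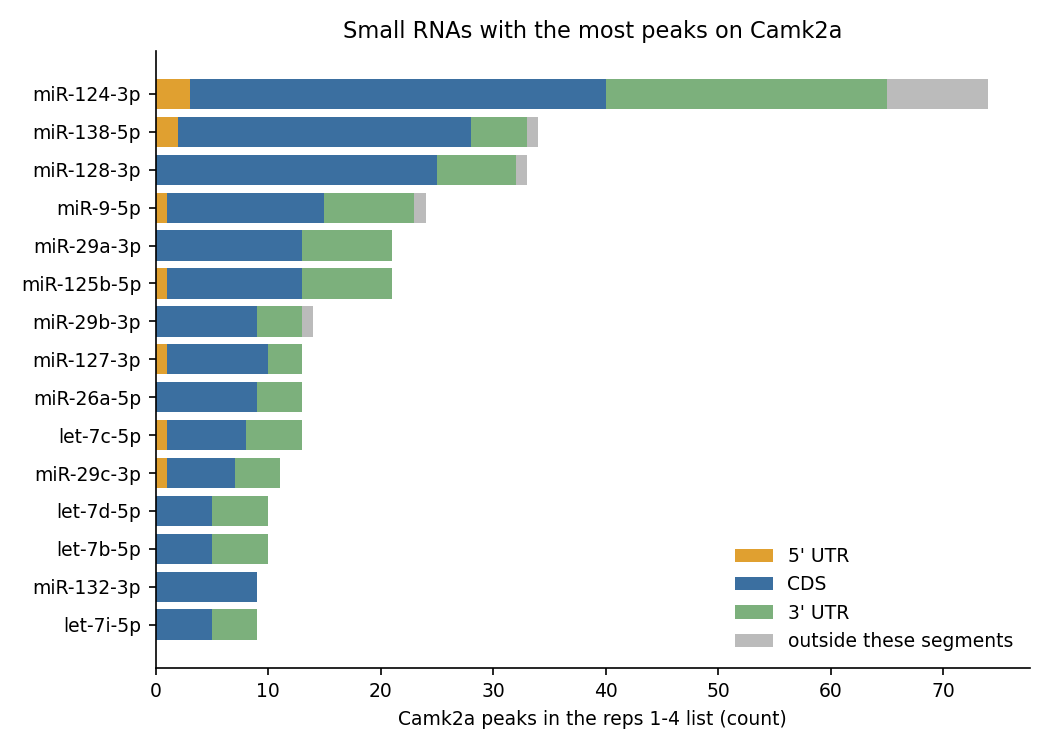
Bars give the number of Camk2a peaks in reps 1-4 (x axis) for the 15 small RNAs with the most, split by the segment each peak overlaps, whatever its annotated feature. miR-124-3p leads with 74, and all 9 peaks of miR-132-3p overlap CDS segments.

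The share of each small RNA among CDS and UTR peaks was compared between Camk2a and all other genes in reps 1-4. Of 205 small RNAs tested, 10 had a higher share on Camk2a (4.88% of those tested) and 2 a lower one (0.976%) by Fisher's exact test, two-sided, with an adjusted p under the threshold. The 2 directions cannot be set against each other, because at 464 Camk2a peaks a rare small RNA could hardly be called lower. For example, miR-221-3p had 0 peaks against 317 on other genes, at an unadjusted exact p of 0.411. Small RNAs with fewer than 10 peaks in all entered only through a Camk2a peak. With 3' UTR peaks alone, 0 of 164 tested passed (12 at an unadjusted exact p under 0.05). The largest number of peaks among those higher was that of miR-138-5p, a brain-enriched miRNA known in rat neurons for an action on dendritic spines. It had 31 of 464 peaks (6.68%, interval 4.75 to 9.33) on Camk2a against 2.09% on other genes (odds ratio 3.36, adjusted exact p = 5.71e-06), 4.59 points higher. With 3' UTR peaks alone its share was 1.48 points higher (adjusted exact p = 0.793), and with CDS peaks alone 6.21 points (adjusted exact p = 4.80e-05). Its highest scores lay in segment 9 (74) and at 2 places in segment 1 (63 and 61).

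The other 9 were rare small RNAs with 2 to 6 peaks on Camk2a. Of these, miR-770-5p had 4 (0.862% against 0.0271%, adjusted exact p = 0.000654), miR-341-3p had 3 (0.647% against 0.0184%, adjusted exact p = 0.00524) and miR-185-5p had 6 (1.29% against 0.179%, adjusted exact p = 0.00813). The adjusted exact p was 0.0188 for miR-744-5p with 5 peaks and 0.0279 for miR-484 with 3. It lay just under the threshold for miR-431-5p (0.0457), miR-338-3p (0.0466), miR-874-3p (0.0482) and miR-212-3p (0.0491), with 2, 3, 2 and 3 peaks. Just outside it lay miR-328-3p with 6 peaks (0.0598). When pairs split at an exon join were counted once, 4 of the 10 stayed past the threshold: miR-138-5p, miR-770-5p, miR-185-5p and miR-744-5p.

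The 2 with a lower share were common ones. miR-124-3p had 61 of 464 peaks on Camk2a (13.1%, interval 10.4 to 16.5) against 21.1% on other genes (adjusted exact p = 0.000654). miR-9-5p, a miRNA of neurons and their precursors, had 19 (4.09%, interval 2.64 to 6.31) against 10.0% (adjusted exact p = 0.000289). By summed score the direction for miR-124-3p was the opposite, with a share 7.93 points higher on Camk2a than on other genes.

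The comparison was repeated, after seeing the data, against the 12 other genes with at least 200 CDS and UTR peaks (3172 peaks). Of 114 small RNAs tested, 2 were higher on Camk2a (1.75%) and 0 lower (0%), with 11 at an unadjusted p under 0.05. The 2 were miR-138-5p, at 6.68% against 2.59% (adjusted exact p = 0.00223), and miR-770-5p, with 4 peaks against 0. miR-770-5p entered this comparison only through its Camk2a peaks, so its count is a description and miR-138-5p is the only tested rise. Others among the 114, such as miR-151-3p with 1 Camk2a peak against 0, entered in the same way. The miR-138-5p share of each of the 12 genes lay between 0.493% (Gpm6a) and 4.76% (Bsn), all below Camk2a. The miR-124-3p share was 13.1% on Camk2a against 12.7% on Slc1a2, 12.5% on Sptbn1, 16.3% on Map2 and 21.9% on Ank3, and its difference over the 12 genes was -1.39 points (adjusted exact p = 0.772). For miR-9-5p the difference was -3.57 points (adjusted exact p = 0.111).

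**Figure D5:**
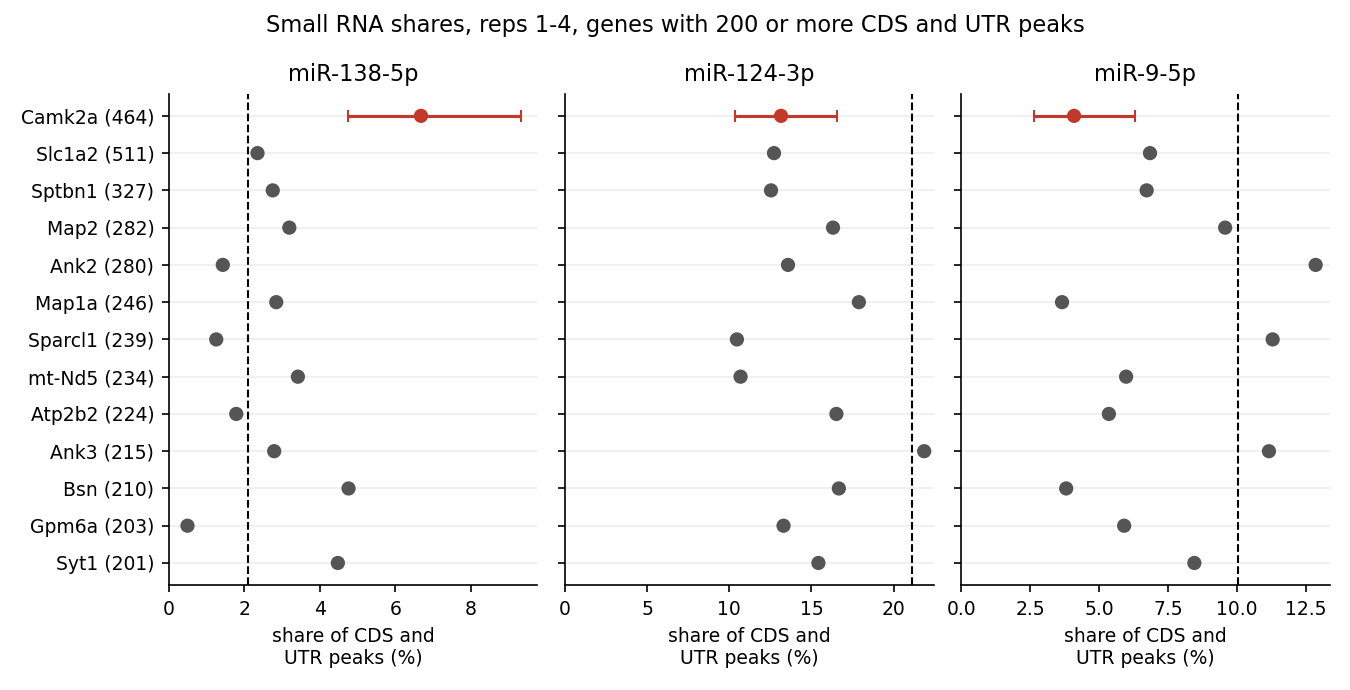
Points give the share of CDS and UTR peaks in reps 1-4 (x axes, percent) that belong to miR-138-5p, miR-124-3p and miR-9-5p, for Camk2a (red, top, with its 95% Wilson interval) and the 12 other genes with at least 200 such peaks (number in brackets). Dashed lines mark the share over all other genes. Camk2a is the highest of the 13 for miR-138-5p and lies among the others for miR-124-3p and miR-9-5p.

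The remaining named small RNAs did not pass the threshold against all other genes. miR-128-3p had 5.82% on Camk2a against 5.07%, miR-127-3p 2.59% against 1.60%, miR-26a-5p 2.80% against 5.05% and miR-132-3p 1.51% against 0.707% (adjusted exact p = 1, 0.463, 0.243 and 0.346). With miRNAs of 1 seed merged, the seed of miR-132-3p and miR-212-3p, a pair transcribed together after neuronal activity, had 10 peaks (2.16% against 0.765%, adjusted exact p = 0.0482). miR-181a-5p, reported in rat neurons to act on the Camk2a 3' UTR, had 3 peaks, all in reps 1-4. They scored 7 in segment 4, 11 in segment 16 and 5 in the 3' UTR at chr18:60984829-60984843, and its share of 0.647% against 1.16% did not pass the threshold (adjusted exact p = 1).

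The genes whose small RNA shares were most like those of Camk2a were sought among 306 genes with at least 50 CDS and UTR peaks in reps 1-4, over 322 small RNAs. By cosine similarity the first 4 were Slc6a17 (0.925), Adcy1 (0.923), Cx3cl1 (0.922) and Atp2b2 (0.921), against a median of 0.832 over the genes compared. These values are a description and lie close together.

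Genes of the CaMKII pathway were covered less in the smaller lists than Camk2a. Of 13 partners, 3 had a CDS or UTR peak in the excitatory list, 5 in reps 5-7 and 13 in reps 1-4. Camk2n1, which encodes an inhibitor of CaMKII, had 4, 10 and 169 peaks in these lists, and Calm3, which encodes calmodulin, had 2, 1 and 64. The paralogs had fewer: Camk2b had 0, 1 and 47, and Camk2g 17 and Camk2d 13 in reps 1-4 alone. In reps 1-4 the 3' UTR share of these peaks was 86.4% for Camk2n1 and 10.6% for Camk2b, against 36.4% for Camk2a. The sources used here do not say whether reads common to the paralogs were split among them.

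Of 9 mRNAs known to be carried into dendrites, 4 had such a peak in the excitatory list, 5 in reps 5-7 and 9 in reps 1-4. Arc, an immediate early gene of synaptic plasticity, came after Map2 and Ddn in the excitatory list with 4 peaks, and had 4 in reps 5-7 and 32 in reps 1-4. Shank1, a scaffold of the postsynaptic density, had 1, 2 and 130. Actb, the gene of beta-actin, had 8 peaks in reps 5-7 and 107 in reps 1-4, and none in the excitatory list.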

How the data were processed

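Per the file headers and calling summaries, peaks were called by the authors on the pool of each group's libraries, requiring 3 reads and 2 libraries, and the submitters' processing notes name mm10. The sources used here give neither the aligner nor the peak caller. The authors' score is a whole number per peak, and what it counts was not defined. Their annotation assigns 1 feature and 1 gene to a peak. Depth was between 61 M and 138 M reads a sample per the labels' protocols (M for 10 to the power 6), with no figure for single libraries. Peaks naming Camk2a were taken as they stand, with positions written from 1. CDS and UTR segments were rebuilt from the annotated intervals of Camk2a peaks over all lists, so an exon without a peak is left out. Shares carry 95% Wilson intervals. Fisher's exact test (scipy 1.17.1) with Benjamini-Hochberg adjustment (statsmodels 0.14.6) compared Camk2a with all other genes, for small RNAs with at least 10 CDS and UTR peaks or at least 1 on Camk2a. It was tested on simulated data with independent peaks and rises in more common small RNAs, so rare ones and clustered peaks were not covered. Overlap meant at least 1 base, on 1 strand, of the same small RNA, and sites merged peaks that overlap by at least 1 base.

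Small RNAs were named by a rule: the 10 with the most Camk2a peaks in reps 1-4, all in the smaller lists, up to 10 in each direction past the threshold, and miR-181a-5p as a reported partner. miR-29c-3p and miR-328-3p were added after their values were seen. For peaks it took the 10 highest scores in reps 1-4 and all in the smaller lists, and further peaks were chosen after their values were seen. The members, gene lists and tests were chosen with earlier results of these data known. Matches of seeds to the target RNA were not analysed here. Some members of the gene and marker lists, oligodendrocyte markers included, are not reported here.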

Additional observations from a re-analysis of the deposited data

How the results depend on the processing

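The share of reps 1-4 peaks on Camk2a (0.213%) was 0.446% among CDS and UTR peaks alone, 0.237% with protein-coding annotations alone, 0.295% at or above the median score, 0.0533% over merged sites and 0.440% by summed score. Its 3' UTR difference from other genes in reps 1-4 (-7.81 points) was 10.7 points over merged sites, 13.6 with all annotated features (adjusted exact p = 2.90e-13), 1.08 against genes with at least 200 CDS and UTR peaks (1.10 in the excitatory list) and -21.3 by summed score. In reps 5-7 it was -28.6 points at or above the median score (adjusted exact p = 0.0387). Between the excitatory list and reps 1-4 the difference was 0 when reps 1-4 kept only its top-scoring Camk2a peaks and -38.5 points over merged sites. The 12 small RNAs past the threshold became 0 with 3' UTR peaks alone (12 at an unadjusted p under 0.05, of 164 tested) and 2 against genes with at least 200 peaks. Of these 2, miR-770-5p entered only through its Camk2a peaks. The 12 became 6 with exon-join pairs counted once on Camk2a alone. The fewer peaks or genes compared are part of each setting. With 3' UTR peaks alone the differences of miR-770-5p, miR-874-3p, miR-484, miR-212-3p and miR-744-5p were -0.0371, -0.0284, -0.0546, -0.0830 and -0.146 points, at 0 Camk2a peaks each. At or above the median score that of miR-874-3p was -0.0139. By summed score that of miR-124-3p was 7.93 points, where the cause was not tested. Overlap of at least 50% of both peaks left 21.4% of excitatory and 33.3% of reps 5-7 Camk2a peaks matched in reps 1-4, against 64.9% and 54.7% on other genes. Within 20 bases it was 95.8% and with any small RNA 100% for reps 5-7. Settings on intron labels, genes with at least 200 peaks and exon-join pairs were chosen after seeing the data. Leaving out replicates could not be run because each list pools its libraries, and seed matches were not run for want of a genome. No paired analysis was possible because the lists hold no columns for single libraries.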
